A study of Mus musculus with 8 samples.

Results

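The step from 3 h to 24 h after a single injection of IFNα was followed in mouse hematopoietic stem and progenitor cells (HSPCs), to describe which transcripts fell back quickly, which fell back slowly and which rose only after 3 h. The 4 mice sampled at 3 h and the 4 mice sampled at 24 h were compared, 8 of the 16 mice of the time series. They contributed 5123 of the 10046 kept cells of the series, 1661 at 3 h and 3462 at 24 h. Members were chosen by time point and by cell filters alone: a barcode was kept if its hashtag call named a single mouse, if at most 5% of its unique molecular identifiers (UMIs) were mitochondrial and if at least 700 genes were detected. All mice were wildtype and 12 to 14 weeks old. Treated mice had received recombinant mouse IFNα under the skin, dosed at 50000 IU for a body weight of 20 g, whereas control mice had received 100 µl of PBS. Lineage-negative cKit+ (LK) bone marrow cells were sorted and mixed with additional LK CD150+ CD48- CD34- cells, a gate for hematopoietic stem cells (HSCs), so the share of HSCs in each library was partly set by the sort. RNA was counted by droplet-based sequencing of transcript 3′ ends. The control and 72 h mice served here only as reference levels.

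IFNα binds the receptor chains IFNAR1 and IFNAR2, whose kinases JAK1 and TYK2 then activate the transcription factor complex ISGF3. Through its subunit IRF9 this complex binds interferon-stimulated response elements (ISREs) near the start of interferon-stimulated genes (ISGs). Many ISGs block viral replication, others process antigen, and some, such as Usp18 and Socs1, shut the receptor down again. In the bone marrow IFNα also drives normally quiescent HSCs transiently into cycle.

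Each time point was 1 library, carrying the cells of 4 mice under 4 hashtag antibodies, so the time point and its library cannot be told apart in any comparison below. The libraries differed in depth: per mouse, 330 to 613 cells with 4903401 to 8553452 UMIs were summed at 3 h, against 613 to 1240 cells with 13320638 to 26446327 UMIs at 24 h. The median kept cell held 12017 UMIs at 3 h and 18953.5 at 24 h, and 17.2% of the 3 h barcodes against 4.37% of the 24 h barcodes were called hashtag-negative. Kept cells of both libraries shared 1 barcode. Among the controls, mouse 4 stood apart with 58 kept cells and high ISG levels (Cxcl10 at 49.3 CPM, UMIs of a gene scaled to a common library total, against 0.612 to 1.00 in the other control mice). The main counts that rest on the control level are therefore also given without it.

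Of 11596 genes tested between 24 h and 3 h, 341 were lower at 24 h (2.94% of the genes tested) and 61 were higher (0.526%), in all 402 or 3.47%. A gene had to change over 2-fold (a log2 fold change beyond 1 in either direction) with an adjusted p below 0.05. Genes past both limits are called differentially expressed genes (DEGs) below, and fell, rose, lower and higher refer to 24 h relative to 3 h. Among genes of at least 10 CPM the largest falls were those of antiviral and sensor transcripts, led by Ifit3b, Ifit3, Cxcl10, Pydc3 and Ifit1bl1. Listed interferon genes made up 106 of the 341 lower DEGs, while 235 were outside the interferon lists. The rises were mostly of low transcripts, as 9 of the 61 higher DEGs had a mean of at least 10 CPM over the 8 mice, against 174 of the 341 lower ones. The groups of 4 mice did not overlap for 322 lower and 48 higher DEGs. Over all genes tested, the 24 h mice lay entirely below the 3 h mice for 15.7% and entirely above for 12.3%, and the median log2 fold change was 0.01. At an adjusted p below 0.05 and any fold, 16% of all genes tested were lower and 11.6% higher, and counts at any fold below are to be read against these shares.

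**Figure D1:**
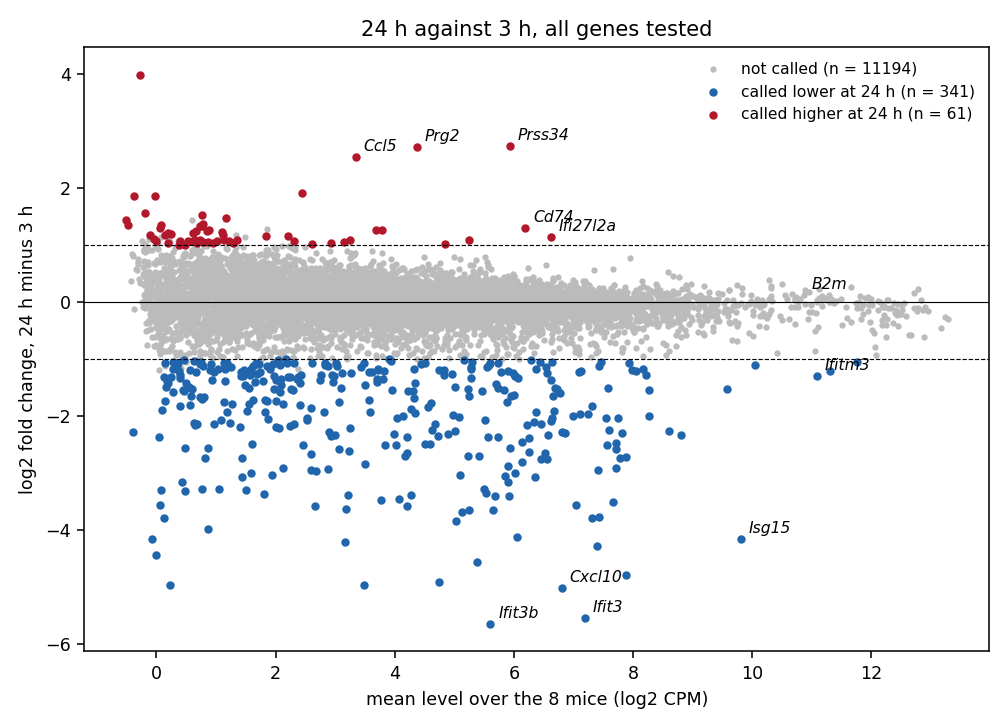
Log2 fold change (24 h minus 3 h) of each of the 11596 genes tested against its mean level over the 8 mice (log2 CPM), with the 341 lower DEGs in blue, the 61 higher DEGs in red and dashed lines at an absolute change of 1. The blue points reach down to Ifit3b at -5.64, whereas most red points sit at the low end of the level axis.

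Without TMM scaling the split moved from 84.8% to 73.5% lower among the DEGs, with 289 lower and 104 higher, as the median of all genes shifted up by 0.13 (log2). In sums over all cells of a mouse, fewer cells of a type and less RNA per cell cannot be told apart. Markers of other cell types differed somewhat between the libraries: the summed B lineage markers (7 genes) stood at 28.3 to 31.2 CPM at 3 h and 40.7 to 67.2 CPM at 24 h, with Ms4a1 at 0 in all 8 mice. The T and NK cell markers (7 genes) stood at 290.9 to 388.1 and 381.4 to 429.7 CPM with Cd3e at 0, and the mature macrophage and dendritic cell markers (10 genes) at 2.9 to 4.9 and 4.8 to 6.4 CPM. The mature neutrophil markers (8 genes) ranged from 21.6 to 33.2 and from 26.5 to 34.1 CPM with Ly6g and Stfa1 at 0, and the stroma and endothelium markers (10 genes) from 31.4 to 39.8 and from 36.7 to 44.1 CPM with Pdgfra at 0. These sums were scaled by total UMIs without TMM, unlike the CPM values of single genes. The TMM factors were 0.924 to 0.931 at 3 h and 1.00 to 1.03 at 24 h, so TMM scaling would make the rises smaller. Markers of this kind can also be expressed by progenitors. In the basophil, mast cell and eosinophil (Ba/MC/Eo) progenitor-like cells described below, Nkg7 had means of 590 CPM at 3 h and 694 CPM at 24 h. Cd79b had means of 31.3 and 39.7 CPM there. The sums therefore do not separate RNA of other cells from RNA of progenitors, and the part of other cells in the results was not tested.

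The DEGs were placed relative to the control level, as a description without a test, with a margin of 0.5 on the log2 scale. The 3 h level enters both the call and this position. Lower DEGs therefore lean to 3 h levels above control and higher DEGs to 3 h levels below it. Of the 341 lower DEGs, 335 came down from a 3 h level above control. At 24 h, 192 of these were still above control, 136 were within the margin and 7 were below. Of the 6 others, 4 had been at the control level at 3 h and 2, the neutrophil genes S100a8 and S100a9, had already been below it. When control mouse 4 was left out, 337 lower DEGs came down from above control, and 183 of them were still above it at 24 h. Of the 61 higher DEGs, 41 came back from a 3 h level below control, 16 started after 3 h from the control level, and 4 rose further from above it. Without control mouse 4 these numbers were 52, 8 and 1, so the number counted as starting after 3 h depended on the control reference.

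The classical antiviral ISGs made up most of the 12 largest falls. Isg15 encodes a ubiquitin-like protein that is conjugated to other proteins upon interferon sensing. Isg15 stood at 1742, 1818, 1706 and 1523 CPM in the 4 mice at 3 h and at 92.1, 94.9, 87.6 and 107 CPM at 24 h, against 18.0 to 25.9 CPM in control mice 1 to 3 and 62.5 CPM in control mouse 4. The groups were far apart: the level fell by 4.15 (SE 0.06) on the log2 scale, a 17.7-fold fall, and remained above the control mice at 24 h. Ifit3, an antiviral gene of the Ifit family, went from 267, 316, 302 and 257 CPM at 3 h to 4.50, 5.79, 6.33 and 7.48 CPM at 24 h. This 46.6-fold fall (log2 fold change -5.54, SE 0.10) left all 4 mice above control mice 1 to 3 (0.336 to 1.68 CPM) and below control mouse 4 (13.2 CPM). Reads of Ifit3 and its close copy Ifit3b, of the Pyhin family (Ifi204, Pydc3, Mnda) and of the H2-Q genes may be split between paralogs, so the values of single members are uncertain.

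Regions before the transcription start of these genes are shown because ISRE-like letters stood in the windows of many interferon genes, as described further on. The letters searched were GAAANNGAAA on either strand (TTTCNNTTTC on the printed strand), in RefSeq windows of GRCm38.p6 from 250 bases before to 50 bases after each start. Capitals mark the matches, which overlap one another in Isg15, and each stretch is printed 5′ to 3′ on the strand of its gene with 25 bases on either side. Ifit3 (chr19:34583348-34583441, plus strand), Ifit1 (chr19:34640760-34640838, plus strand), Isg15 (chr4:156200850-156200921, minus strand), Cxcl10 (chr5:92349068-92349127, minus strand) and Rsad2 (chr12:26456538-26456597, minus strand) were among the 12 largest falls. B2m (chr2:122147523-122147582, plus strand) is shown for contrast, since its level did not fall although its window holds a match.
Ifit3: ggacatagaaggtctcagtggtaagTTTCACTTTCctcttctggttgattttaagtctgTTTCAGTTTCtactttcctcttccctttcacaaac
Ifit1: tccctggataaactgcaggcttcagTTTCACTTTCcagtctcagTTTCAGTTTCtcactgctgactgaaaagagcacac
Isg15: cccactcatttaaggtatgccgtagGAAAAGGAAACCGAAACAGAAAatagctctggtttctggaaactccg
Cxcl10: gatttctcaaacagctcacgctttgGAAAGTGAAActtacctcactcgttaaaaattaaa
Rsad2: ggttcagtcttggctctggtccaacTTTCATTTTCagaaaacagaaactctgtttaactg
B2m: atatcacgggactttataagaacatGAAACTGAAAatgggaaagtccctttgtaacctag

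Among the antiviral effectors, 38 of 45 genes tested fell and 1 rose (median log2 fold change -2.50, against 0.01 over all genes), with Mx1, which blocks viral replication, at 73.8 to 88.2 CPM at 3 h and 3.03 to 3.62 CPM at 24 h. The 16 tested members of the list of guanylate-binding proteins and related GTPases, which attack the vacuoles of intracellular microbes, all fell (median -2.43), with Gbp7 at 284 to 340 CPM and 51.2 to 66.1 CPM. Of the RNA and DNA sensors 16 of 20 fell (median -2.51), and of the TRIM, PARP and Schlafen genes 21 of 23 (median -2.03), among them Trim30a with a log2 fold change of -2.72. Ifitm3, a membrane protein that blocks viral fusion, showed a smaller fall, from 2975, 3087, 3323 and 2908 CPM to 1246, 1324, 1194 and 1264 CPM (log2 fold change -1.29, SE 0.04). All 4 mice at 24 h were below the 3 h mice and above the control mice, which lay between 422 and 518 CPM. Bst2, which tethers budding virions to the cell, likewise fell by 1.52 on the log2 scale and stayed above control, with 377 to 418 CPM at 24 h against 179 to 188 CPM in the control mice.

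**Figure D2:**
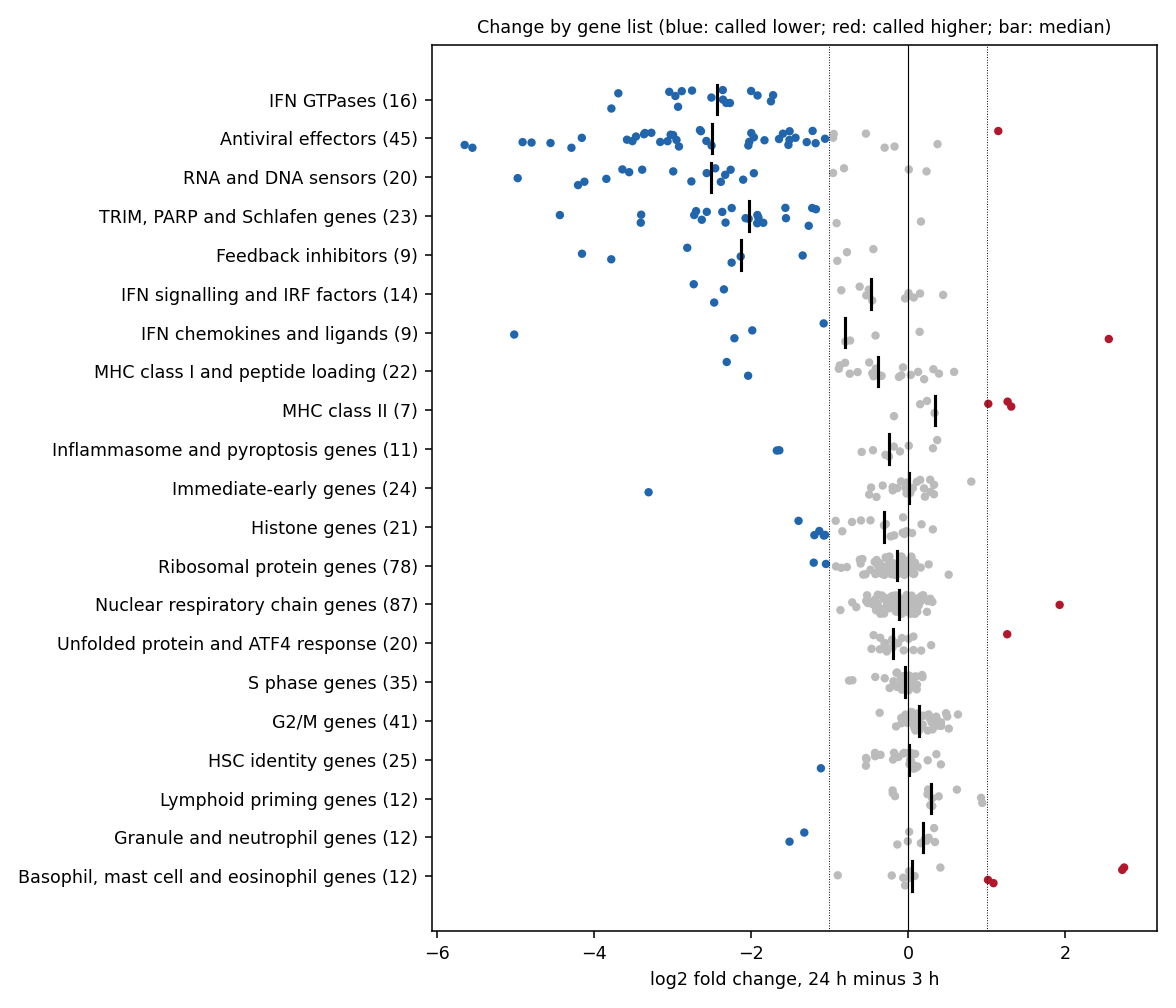
Log2 fold change (24 h minus 3 h) of each tested member of 21 gene lists, with the number tested in brackets, lower DEGs in blue, higher DEGs in red, other genes in grey and a black bar at the list median. The antiviral, sensor, GTPase and TRIM, PARP and Schlafen lists have medians between -2.51 and -2.03, whereas the interferon signalling list has its median at -0.48 and MHC class II at 0.34.

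A list of feedback genes held receptor and kinase inhibitors (Usp18, Socs1, Socs2, Socs3 and Cish) together with Isg15 and its conjugation enzymes (Uba7, Ube2l6 and Herc6). Of these 9 genes 6 fell (median -2.13): Usp18, Socs1, Socs3, Isg15, Herc6 and Ube2l6. Usp18, which displaces JAK1 from the receptor, went from 264 to 319 CPM at 3 h to 20.6 to 22.5 CPM at 24 h (log2 fold change -3.78, SE 0.06), and Socs1, an inhibitor of JAK kinases, from 38.5 to 45.0 CPM to 7.67 to 11.3 CPM (-2.13, SE 0.10). The signalling genes moved less, as 3 of 14 fell (median -0.48). Irf7, the transcription factor that amplifies type I interferon production, stood at 349, 347, 381 and 345 CPM at 3 h and at 58.1, 66.8, 65.7 and 66.0 CPM at 24 h (log2 fold change -2.47, SE 0.05). Irf9, the DNA-binding subunit of ISGF3, was measured at 60.1, 70.6, 65.6 and 62.5 CPM at 3 h and at 39.2, 44.8, 40.3 and 43.9 CPM at 24 h. These groups did not overlap, but the difference of -0.62 (SE 0.07, edgeR's quasi-likelihood adjusted p = 1.38e-06) was under the fold limit, and at 24 h all 4 mice were still above the control mice (20.2 to 25.5 CPM). The receptor genes, looked up after the values had been seen, gave log2 fold changes of 0.15 (Ifnar1, SE 0.09) and -0.04 (Ifnar2, SE 0.06), with overlapping groups for both. Jak1 gave 0.00 (SE 0.05).

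The pace of decay was described by the share of the 3 h excess over control that was left at 24 h. This share was computed for the 112 listed interferon genes with a 3 h mean of at least 10 CPM and over 2-fold the control mean, and it carries no test, as the 3 h level is in both terms. The median gene had 9.44% of its excess left. Under 10% was left for 60 genes (fast), over 40% for 6 genes (slow), and 46 genes lay between. By 72 h the median share was 0.777%. The smallest shares at 24 h were those of Cxcl10 (-3.17%), Nlrc5 (-1.45%), Ifit3 (0.652%), Ifit3b (1.15%) and Ifit1bl1 (2.03%). Cxcl10, a chemokine that attracts activated T cells, was at 214, 238, 204 and 214 CPM at 3 h and at 5.31, 6.46, 3.1 and 10.8 CPM at 24 h. Its share below 0 rested on control mouse 4: without that mouse, 2.61% of the Cxcl10 excess was left and 4.70% of the excess of Nlrc5, the MHC class I transactivator. The median share without it was 9.77% over 111 genes, with 59 fast genes and the same 6 slow ones.

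The 6 slow genes were Ifitm1 (43.9% left), Irf9 (45.4%), Tap1 (54.0%), H2-Q4 (61.6%), H2-Q6 (129%) and Ifi27l2a (250%). Tap1 pumps peptides into the endoplasmic reticulum for loading onto MHC class I, and H2-Q4 and H2-Q6 are nonclassical class I heavy chains. Just inside the limit of 40% were Ifitm1 and Irf9, and just outside it were H2-T22 (36.3%) and Shisa5 (32.2%). Ifitm1 was at 939 CPM in 3 h mouse 3 against 567 to 624 CPM in the other 3 h mice. Without that mouse or without TMM scaling its 3 h mean was no longer over 2-fold the control mean, so no share was computed. Without 3 h mouse 4 or without 24 h mouse 2 the share of Ifitm1 was not over 40%. Without TMM scaling 109 genes had such an excess, and H2-Q6 dropped out because its 3 h mean was no longer over 2-fold the control mean. H2-T22 was slow under that setting, and Socs2 without 3 h mouse 1. The other 4 of the 6 slow genes were slow under all 10 alternatives run for these shares (no TMM scaling, each of the 8 mice left out, and no control mouse 4). Of the fast genes, 27 of the 42 with a promoter window in RefSeq (64.3%) had the ISRE-like letters in it, compared with 19 of 37 genes in between (51.4%) and 0 of 5 slow genes. Over all interferon genes with a 3 h excess and a window the share was 54.8% (46 of 84). Over the tested genes with a window it was 3.93% (346 of 8798), and over all 32851 windows it was 3.44%. Among lower DEGs it was 29.0% (63 of 217) and among higher DEGs 5% (2 of 40). A second motif, TTCNNNGAA, was found for 14.3% of the lower DEGs and 8.37% of the tested genes. These are matches of letters in a short window, and with 5 slow genes the shares are descriptions only.

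**Figure D3:**
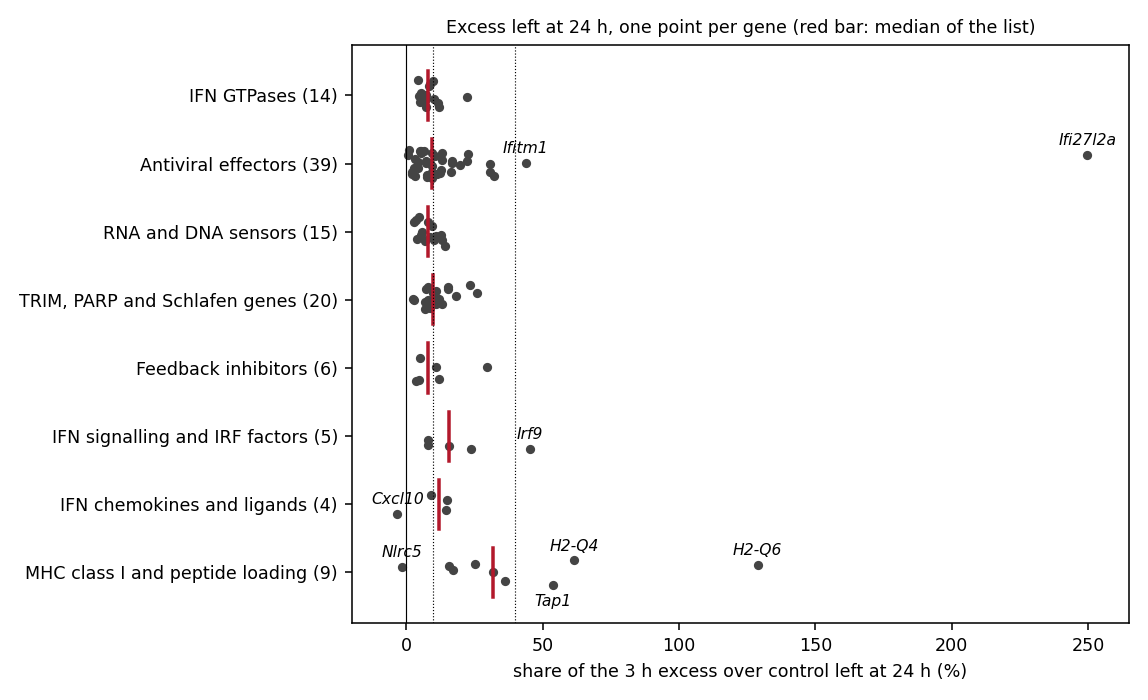
Share of the 3 h excess over the control mean left at 24 h (%), with 1 point for each of the 112 interferon genes with an excess, by list, red bars at the list medians and dotted lines at 10% and 40%. Most points lie to the left of 40%, whereas Ifi27l2a (250%) and H2-Q6 (129%) lie beyond 100%, and the MHC class I median (31.8%) is the highest of the 8 lists.

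Antigen presentation genes moved in both directions. Of the 22 MHC class I and peptide loading genes tested, 2 fell, Nlrc5 and the nonclassical H2-T24 (median of the list -0.39), and at any fold 13 were lower and 5 higher, against 16% and 11.6% of all genes. The classical heavy chain H2-K1 was at 1036, 1083, 1086 and 1080 CPM at 3 h and at 1395, 1498, 1396 and 1339 CPM at 24 h. All 24 h mice were above all 3 h mice, which were themselves above the control mice (815 to 902 CPM), yet the difference of 0.39 (SE 0.03, edgeR's quasi-likelihood adjusted p = 1.35e-07) was under the fold limit. H2-D1 (chosen after its values had been seen) and the light chain B2m gave differences of 0.32 (SE 0.03) and 0.13 (SE 0.03), also without overlap. The immunoproteasome subunits Psmb8 and Psmb9, chosen in the same way, differed in the other direction, by -0.34 and -0.36. H2-K1 and B2m kept their sign under library size scaling, at values up to 0.53 and 0.26 over all alternatives.

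Ifi27l2a (chr12:103442167-103443680, minus strand, GRCm38.p6), a small interferon-inducible membrane protein gene, was the only listed antiviral effector that rose. It went from 12.7, 12.4, 14.6 and 8.81 CPM in the control mice to 60.3, 73.0, 56.4 and 55.7 CPM at 3 h and to 141, 138, 128 and 133 CPM at 24 h, and its mean was back at 12.0 CPM at 72 h. The 24 h mice were above all other mice, with a log2 fold change of 1.15 (SE 0.07) from 3 h. It was the 1 gene that rose further from above control both with and without control mouse 4.

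MHC class II genes, which present antigen to CD4+ T cells, accounted for 3 of the 5 listed interferon genes that rose: Cd74, H2-Eb1 and H2-Aa, of 7 tested, with none lower. Cd74, the invariant chain, stood at 18.4, 78.5, 13.4 and 64.9 CPM at 3 h and at 54.3, 129, 107 and 119 CPM at 24 h. The groups overlapped, with a pair of low mice at 3 h and 1 low mouse at 24 h (log2 fold change 1.31, SE 0.36). Control mice 1 to 3 had 55.0 to 62.7 CPM, and control mouse 4 had 0.881 CPM. Without 3 h mouse 3 the value was 0.93, and with DESeq2 the adjusted p was 0.161, so the call did not hold under either; the list count then was 1. The fifth listed gene that rose was the chemokine Ccl5, which moved from 1.97, 6.36, 0.758 and 3.77 CPM to 10.7, 15.8, 27.5 and 14.4 CPM (log2 fold change 2.55, SE 0.41), without overlap. Control mice 1 to 3 had a mean of 7.25 CPM. Ccl5 counted as rising further from above control with control mouse 4, and as coming back from below control without it. With Cxcl10 and 3 other genes lower, the chemokine and ligand list counted 4 falls and 1 rise in 9 genes tested (median -0.80).

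**Figure D4:**
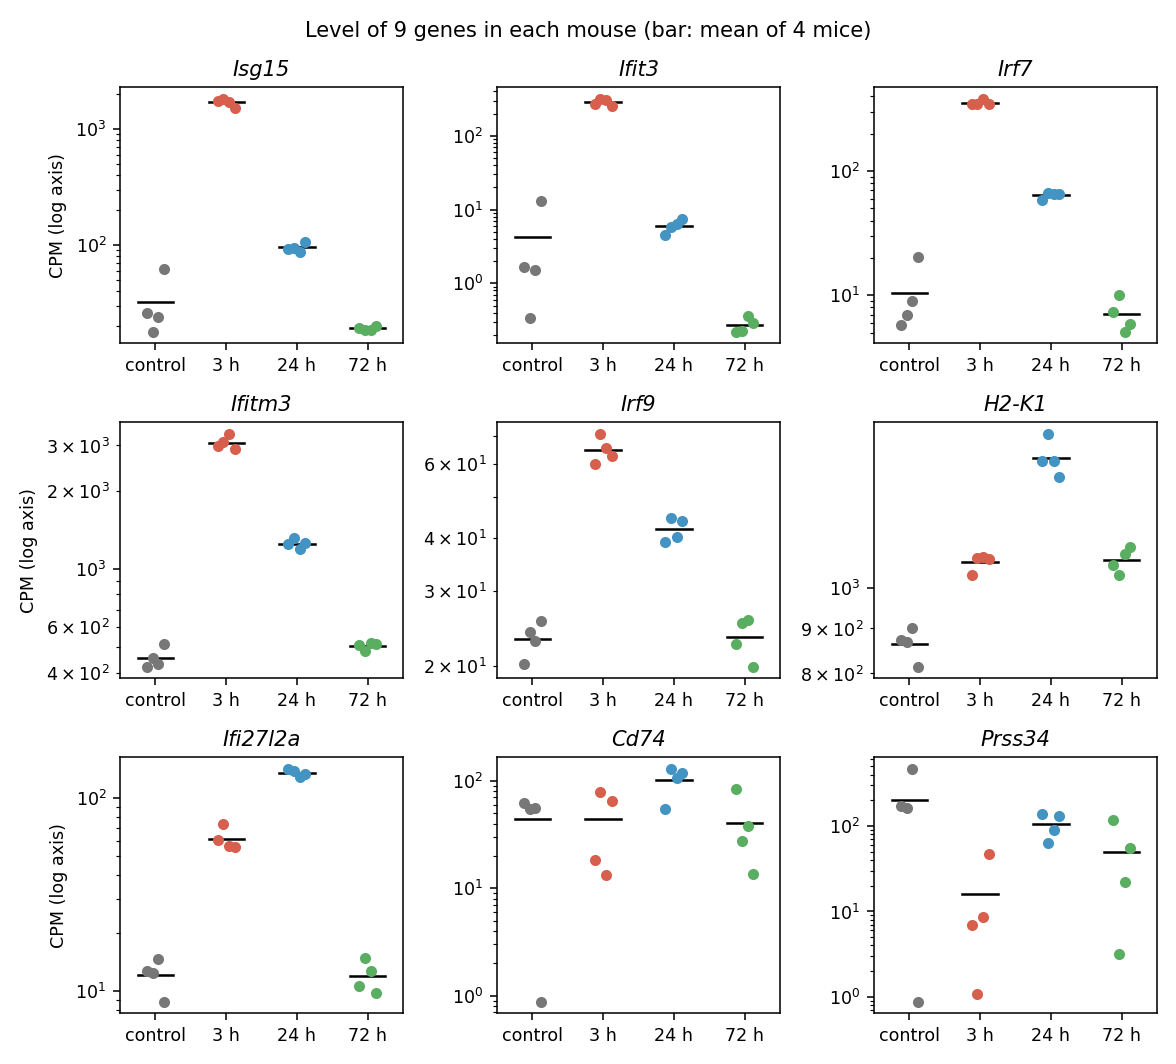
Level of 9 genes in CPM (log axis) in each of the 4 mice per group, with a bar at the mean. Isg15, Ifit3, Irf7 and Ifitm3 drop between 3 h and 24 h, H2-K1 and Ifi27l2a (55.7 to 73.0 CPM at 3 h, 128 to 141 CPM at 24 h) are highest at 24 h, and Prss34 is lowest at 3 h apart from control mouse 4.

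How many genes started after 3 h depended on the margin around the control level: 16 at a margin of 0.5, 7 at 0.25 and 37 at 1. None of the 16 at the margin of 0.5 reached a mean of 10 CPM with separate groups: H2-Aa and H2-Eb1 were above that level but overlapped, and the others were below it. Tbxa2r, the thromboxane A2 receptor gene of platelets and their precursors, was chosen after its values had been seen, as the most abundant of those whose groups did not overlap. It was at 4.38, 7.68, 4.04 and 7.54 CPM at 3 h, at 11.6, 13.1, 11.3 and 11.1 CPM at 24 h, and still at a mean of 11.9 CPM at 72 h, against 6.07 to 8.29 CPM in the control mice (log2 fold change 1.06, SE 0.16). Tbxa2r, H2-Eb1 and Trib3, a pseudokinase of the ATF4 response at a mean of 2.21 CPM at 24 h, were at the margin of 0.5 among those that started after 3 h with and without control mouse 4. H2-Aa, Klf7 and Arpp21 did so only with it. The 3 h level minus control (log2) was -0.34 for Tbxa2r, 0.13 for H2-Eb1 and 0.05 for Trib3. Without control mouse 4 these were -0.35, -0.48 and 0.07. At a margin of 0.25 Tbxa2r therefore counted as coming back from below control, and H2-Eb1 did so without control mouse 4.

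At this margin, 41 of the 61 higher DEGs came back from a 3 h level below control (23 at a margin of 1). Basophil, mast cell and eosinophil genes led this group, with 4 of 12 tested higher and none lower (median of the list 0.05): Prss34, Prg2, Mcpt8 and Fcer1a. Prss34, a basophil protease, was at 170, 163 and 464 CPM in control mice 1 to 3 but at 0.881 CPM in control mouse 4, at 7.02, 1.10, 8.72 and 46.8 CPM at 3 h and at 138, 62.7, 91.0 and 132 CPM at 24 h (log2 fold change 2.75, SE 0.44). Control mouse 4 was thus below every 3 h mouse. The 24 h mice were all above the 3 h mice, and a single 3 h mouse, mouse 4, was well above the other 3 h mice. Fcer1a, the IgE receptor alpha chain, was also separate, with 1.77 to 6.75 CPM and 6.83 to 9.56 CPM, while the groups overlapped for Prg2 and Mcpt8. Cells of the clusters with such genes made up 5.88% ± 1.02 of kept cells at 3 h and 6.74% ± 1.07 at 24 h (SD, n = 4), a difference that did not pass (two-sided exact permutation test, p = 0.257). Within these cells Prss34 also rose, from 290 ± 354 CPM (16.1 to 807) to 1506 ± 972 CPM (363 to 2317). The mice overlapped (log2 fold change 2.32, SE 0.50), and Prss34 was itself among the markers that named these clusters. Dhrs3, a retinaldehyde reductase, came back from 6.35 to 8.77 CPM to 18.5 to 20.5 CPM, within the margin of control (13.2 to 19.4 CPM). Tsc22d3, a glucocorticoid-induced gene, had separate groups too (28.3 to 36.4 and 45.6 to 61.2 CPM) but stayed under the fold limit at 0.75.

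Falls outside the interferon lists included regulators of growth and metabolism. Ccnd2, the cyclin D2 gene that drives entry into the cell cycle, stood at 436, 443, 425 and 384 CPM at 3 h and at 179, 186, 171 and 163 CPM at 24 h (log2 fold change -1.27, SE 0.05). The groups were separate, and the control mice lay at 131 to 150 CPM, below all mice of both. It was the only faller of 22 cell cycle entry and quiescence regulators, in a list with 0 risers. At any fold 8 of them were lower and 3 higher (4 and 6 without TMM scaling). Hk2, the first enzyme of glycolysis, fell from 76.5 to 100 CPM to 27.7 to 30.3 CPM, the only one of 16 glycolysis enzymes, where 5 were lower and 5 higher at any fold (4 and 9 without TMM scaling). The HSC surface gene Ly6a, which encodes Sca-1, fell from 194 to 266 CPM to 103 to 118 CPM (log2 fold change -1.11, SE 0.08). The paper counts Sca-1 among genes with an early rise after IFNα and a quick return, although it is outside the interferon lists here. Ly6a was the only faller of 25 HSC identity genes and lost its call without TMM scaling (-0.97) and with clusters in equal weights (-0.84). The equal weights were fitted with limma and also without TMM scaling. Pim1, a survival kinase gene that was picked after its values had been seen, fell from 363 to 558 CPM to 138 to 176 CPM, within the range of the control mice (109 to 185 CPM).

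Of the 11 inflammasome and pyroptosis genes, Casp4 (log2 fold change -1.64) and Il18 (-1.67) fell, while Casp1 gave -0.45 (SE 0.06). At any fold 6 of the 11 were lower and 0 higher (3 and 1 without TMM scaling). Of the 21 histone genes tested, 5 fell (median -0.31; 2 fell without TMM scaling, median -0.17), among them Hist1h4c at 13.8 to 21.4 and 5.97 to 9.49 CPM. Proliferation genes did not pass in these sums: 0 of 35 S phase genes (2 higher and 6 lower at any fold, 11 and 3 without TMM scaling) and 0 of 41 G2/M genes passed, although 16 G2/M genes were higher and 1 lower at any fold (median 0.14, and 30 higher and 1 lower with a median of 0.28 without TMM scaling). Mki67 gave 0.25 (SE 0.07) with overlapping groups, and the G2 cyclin Ccnb1 was at 20.2 to 27.8 CPM at 3 h and 31.5 to 32.4 CPM at 24 h, below the control mice (37.0 to 44.4 CPM) at both times.

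Among 78 ribosomal protein genes tested, Rpl35 and Rps28 fell, and 51 were lower and 7 higher at any fold (median -0.15), against 16% and 11.6% of all genes. Without TMM scaling the count was 1, with 33 lower and 29 higher at any fold and a median of -0.01. Rpl35 stood at 3438, 3623, 3519 and 3509 CPM at 3 h and at 1530, 1522, 1521 and 1558 CPM at 24 h, while the control mice had 634 to 662 CPM and the 72 h mean was 2404 CPM. The spread within each library was small next to the gaps between libraries, and the 72 h level was above the 24 h level. Nuclear respiratory chain genes counted 1 rise (Cox6a2) and 0 falls in 87, with 37 lower and 11 higher at any fold (median -0.11, and 0.02 without TMM scaling), and mitochondrial ribosomal genes 0 in 76, with 23 lower and 2 higher (median -0.07, and 0.06 without TMM scaling). No mitochondrially encoded gene passed of 13, with 5 lower and 0 higher at any fold (5 and 6 without TMM scaling). Ribosome biogenesis genes gave 0 DEGs in 24, with 13 lower and 1 higher at any fold (8 and 4 without TMM scaling).

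The other lists held few DEGs. The immediate-early list had 1 faller of 24 (Atf3, a stress-induced factor at a mean of 1.95 CPM at 3 h and 0.174 CPM at 24 h), and the sort gate surface genes 2 fallers of 9 (Ly6a and Ly6c1). In the unfolded protein and ATF4 response list 1 of 20 genes rose (Trib3), but at any fold 9 were lower and 1 higher (median -0.19). Without TMM scaling 3 were lower and 3 higher at any fold (median -0.06). Monocyte and dendritic progenitor genes had 2 fallers of 16, among them the Fc receptor gene Fcgr1, and granule and neutrophil genes 2 of 12, S100a8 and S100a9. S100a9 rested on 3 h mouse 2 at 36.2 CPM against 2.41 to 7.96 CPM in the other 3 h mice, and without it the value was -0.35. No gene passed among heat shock genes (11 tested), glucocorticoid-responsive genes (10), circadian clock genes (14), p53 targets (13), death and survival genes (18), cholesterol synthesis and uptake genes (23), purine synthesis enzymes (18), aminoacyl-tRNA synthetases (20), constitutive proteasome subunits (31) and endoplasmic reticulum translocon and signal peptidase genes (23). Nor did any pass among lymphoid priming genes (12), myeloid transcription factors (14), erythroid genes (19), megakaryocyte genes (15), homing and adhesion receptors (16) and GIMAP genes (6). At any fold the counts of these lists ran from 0 to 7 lower (translocon genes, with 0 higher) and from 0 to 4 higher (glucocorticoid-responsive genes, with 0 lower). These counts depended on the scaling. Without TMM scaling 1 cholesterol gene and 1 lymphoid priming gene rose. At any fold 18 proteasome subunits, 10 homing and adhesion receptors and 7 lymphoid priming genes were then higher, against 3 in each list with TMM scaling. Of the markers of other cell types, 1 B lineage, 2 T and NK cell, 1 macrophage and dendritic cell, 3 neutrophil and 5 stroma and endothelium genes could be tested, and 1 of them fell (Lepr).

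The change was also followed within cell classes. The 3 h and 24 h cells were clustered together without the listed interferon genes and without the DEGs, and the 17 clusters were named from fixed markers. The 2 HSC-like clusters, 3 and 8, were mixed differently at the 2 times (171 and 185 cells at 3 h, 377 and 188 cells at 24 h), so HSC-like values are also given for each. Cluster 8 had 1 HSC marker, Hlf, among its leading genes. At 3 h Hlf had means of 277 CPM in cluster 8 and 354 CPM in cluster 3. Mpo, a myeloid progenitor marker, had means of 220 and 30.0 CPM, and Cdk6 of 361 and 63.8 CPM. The name HSC-like thus covers 2 unlike clusters, and cells other than HSCs may be among them. HSC-like cells had 308 lower (3.74%) and 88 higher DEGs (1.07%) of 8242 genes tested. Erythroid progenitor-like cells had 224 (2.77%) and 23 (0.284%) of 8100, MK progenitor-like cells 193 (2.44%) and 22 (0.278%) of 7903, myeloid progenitor-like cells 161 (1.84%) and 36 (0.411%) of 8764, and Ba/MC/Eo progenitor-like cells 116 (2.26%) and 27 (0.525%) of 5142. Cluster 3 alone gave 290 lower and 67 higher and cluster 8 alone 211 and 30. Of 4962 genes tested in all 5 classes, 79 fell in every class and 0 rose in every class. The numbers of DEGs cannot be compared directly between classes, which differ in cells and depth. LMPP-like cells were not tested, as only 3 h mouse 3 (14 cells) reached the 10 cells required in a 3 h mouse.

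Isg15 fell in HSC-like cells, from 2332 ± 105 to 145 ± 31.3 CPM (mean ± SD, n = 4), and in myeloid progenitor-like cells, from 899 ± 89.1 to 58.7 ± 9.46 CPM, and the difference between the changes, -0.10 (SE 0.16) on the log2 scale, did not pass. Across 7635 genes tested in both classes, the within-mouse difference between HSC-like and myeloid progenitor-like cells changed from 3 h to 24 h for 155 genes (limma adjusted p under 0.05), with the HSC-like change below the myeloid one for 104 (1.36%) and above it for 51 (0.668%). Of 134 listed interferon genes, 30 differed, all with the change in HSC-like cells below that in myeloid progenitor-like cells (median difference of the 134 genes -0.63). Control cells were not clustered, so no class has a control level. The pace of decay as a share of the 3 h excess was therefore not computed within classes. Leaving out 1 mouse at a time lowered the 155 to between 29 (without 24 h mouse 3) and 96, and the 51 genes with the HSC-like change above to between 2 and 31.

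Ifi204, a nuclear DNA sensor, fell by 5.63 in HSC-like and by 2.68 in myeloid progenitor-like cells on the log2 scale (difference -2.95, SE 0.45), and Ifit2, which binds RNA alongside its Ifit relatives, by 4.58 and 1.93 (difference -2.65, SE 0.26). HSC-like cells started higher for both genes, with 292 ± 30.7 against 87.5 ± 17.0 CPM of Ifi204 and 289 ± 31.2 against 23.1 ± 8.76 CPM of Ifit2 at 3 h. Ly6e, a GPI-anchored antiviral protein gene, fell from 1848 ± 119 to 737 ± 33.9 CPM in HSC-like cells, and in myeloid progenitor-like cells it was at 1071 ± 59.2 CPM at 3 h and at 1078 ± 41.6 CPM at 24 h (difference -1.33, SE 0.11). Ifi27l2a, which rose in the whole compartment, stood at 103 ± 36.1 and 113 ± 13.6 CPM in HSC-like cells (0.08, SE 0.14, edgeR's quasi-likelihood adjusted p = 0.755) and rose from 15.5 ± 2.24 to 89.0 ± 9.77 CPM in myeloid progenitor-like cells, a difference between the changes of -2.25 (SE 0.36). H2-Q6 followed the same order, with 138 ± 12.6 and 139 ± 6.46 CPM in HSC-like and 16.1 ± 2.90 and 39.3 ± 3.96 CPM in myeloid progenitor-like cells. The pooled HSC-like means mix 2 clusters whose proportions differed between the times. Ifi27l2a had means of 51.4 and 68.2 CPM in cluster 3 (0.42, SE 0.24) and 152 and 205 CPM in cluster 8 (0.39, SE 0.16). H2-Q6 gave -0.23 (SE 0.12) in cluster 3 and 0.10 (SE 0.15) in cluster 8. Neither gene passed in either cluster. With cluster 3 alone the difference of Ifi27l2a no longer passed (-1.82, limma adjusted p = 0.111), and with cluster 8 alone that of H2-Q6 no longer passed (-1.09, limma adjusted p = 0.0817). Bst2, Gbp2, Ifi204, Ifit2 and Ly6e kept theirs in both.

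**Figure D5:**
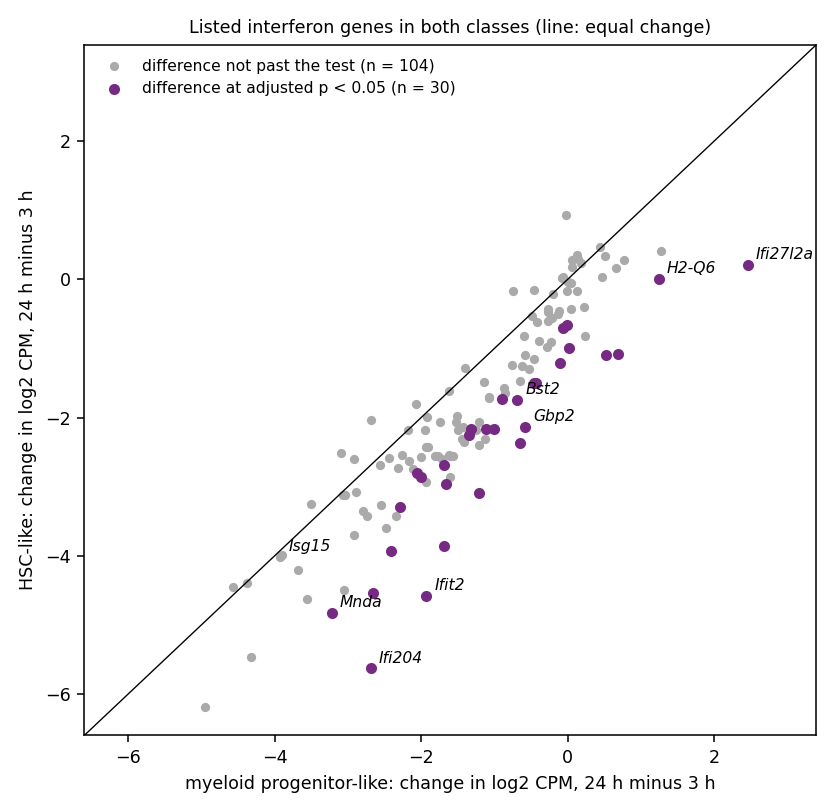
Change from 3 h to 24 h in log2 CPM of 134 listed interferon genes in myeloid progenitor-like cells (x axis) and HSC-like cells (y axis), with 1 point per gene, the 30 genes whose changes differed in purple and a line of equal change. Isg15 sits near the line, whereas Ifi204, Ifit2 and Ifi27l2a lie well below it, by 2.95, 2.65 and 2.25.

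Cd74 rose in HSC-like cells from 111 ± 50.3 CPM (61.4 to 165) to 672 ± 135 CPM (481 to 768), without overlap (log2 fold change 2.65, SE 0.15), and it rose in cluster 3 alone (2.18, SE 0.15) and in cluster 8 alone (2.93, SE 0.21). In HSC-like cells 4 of 7 MHC class II genes rose and 1 fell. In MK progenitor-like cells 3 of 6 rose, with Cd74 from 2.41 ± 1.73 to 58.1 ± 30.3 CPM, whereas in erythroid, myeloid and Ba/MC/Eo progenitor-like cells no MHC class II gene passed of 3, 4 and 3 tested. Cd74 did not pass the filter on low counts in those 3 classes, so its difference between classes was not tested. For MHC class I and peptide loading, 7 of 22 genes fell in erythroid progenitor-like cells, and 2 rose and 2 fell in myeloid progenitor-like cells. Ccl5 rose in HSC-like cells from 2.07 ± 1.96 to 43.0 ± 19.7 CPM. Ccnd2 fell in HSC-like cells (-1.31, SE 0.07), in erythroid progenitor-like cells (-1.41, SE 0.07), in Ba/MC/Eo progenitor-like cells (-1.37, SE 0.14) and in myeloid progenitor-like cells (-1.01, SE 0.07), and gave -0.96 (SE 0.08) in MK progenitor-like cells.

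Shares of cells per class were compared with little power, since the smallest p that 4 against 4 mice allow is 0.0286 and 1 class alone could reach an adjusted p of only 0.20. HSC-like cells made up 20.9% ± 3.98 of the kept cells at 3 h and 16% ± 1.70 at 24 h (SD, n = 4). This difference of -4.88 percentage points did not pass (exact permutation test, two-sided, p = 0.0571 and 0.40 after adjustment over 7 classes). It was 0.89 and 0.56 with a coarser and a finer clustering, where fewer cells bore the name at 3 h (12.3% and 11.6%). In each of these clusterings a cluster with Hlf and Ly6a among its leading genes was unnamed (711 and 318 cells), so the values cover different cells. Of the marker sets, that of LMPPs scored highest in both of these unnamed clusters. LMPP-like cells were at 2.23% and 3.37%, erythroid progenitor-like at 16% and 14.6%, MK progenitor-like at 12.7% and 14.3%, myeloid progenitor-like at 12.4% and 14.7%, and unnamed clusters at 29.9% and 30.3%. The smallest adjusted p over the 7 classes was 0.40. Some directions depended on the clustering. Erythroid progenitor-like cells were at 2.90% and 3.89% with the coarser and at 6.18% and 6.95% with the finer one. With the finer clustering LMPP-like cells were at 12.3% and 10.4% and MK progenitor-like cells at 10.8% and 10.1%. With the coarser one these 2 classes were at 2.52% and 4.12% and at 12.9% and 14.3%. With the coarser clustering the unnamed clusters, the one with Hlf and Ly6a among them, held 53.9% and 45.4% (exact permutation test, two-sided, p = 0.0286 and 0.20 after adjustment).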

How the data were processed

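Raw UMI counts of each gene in each barcode were deposited (Cell Ranger 3.1.0, mm10; the gene annotation is not given in the sources used here), with Seurat hashtag calls. CPM and log2 values were computed from these deposited counts. Hashtag multiplets were removed; doublets within a mouse remain. Counts were summed per mouse (4903401 to 26446327 UMIs). Differential expression used edgeR 4.0.16 under R 4.3.3: filterByExpr, TMM over all 16 mice and the quasi-likelihood F test on 8 mice, adjusted by Benjamini-Hochberg over all genes tested; log2 CPM used a prior count of 2. Hashtags mark separate mice, per the labels. Differences between classes were tested with limma 3.58.1, and shares by exact permutation of mice. Clustering used Scanpy 1.11.5 with 1000 variable genes, 20 components, 15 neighbors and a Leiden resolution of 0.8, leaving out 477 genes (6 of the 49 markers among them); a class needed 10 cells in a mouse. Named genes were the 12 largest falls and rises at a mean of at least 10 CPM without overlap of mice, in each list the most abundant member and the largest called fall and rise, the 5 smallest and 5 largest shares of excess left, up to 10 late starters under the same limits (none met them), and a fixed panel; others are marked where they appear, and 1 gene is not reported here. Members, lists and tests were chosen with earlier results of these data known. On simulated counts (11422 genes, 24 h against 3 h), 96% of genes changed by -1.5 and 100% of those changed by 1.5 or by 2 in either direction were recovered, with 0 unchanged genes called. The changed genes were drawn only from those above a minimum mean count, and no library effect beyond depth was simulated. The recovery therefore does not cover the genes with the fewest counts. Falls and rises were simulated in nearly equal numbers, unlike the DEGs, so the simulation does not cover the dependence on TMM scaling. Alternatives were edgeR's likelihood ratio test, DESeq2 1.42.0, other scalings, filters, cell filters, clusterings, a hashtag number block and leaving out each mouse. Hashtag numbers were not treated as pairs, as they mark no shared animal and not every correlation of the deviations of equal numbers passed 0.1 (0.160, 0.158, 0.0267 and 0.172).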

Additional observations from a re-analysis of the deposited data

Results flagged for a closer look

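Of 236 groups of 4 mice examined for the named genes, 12 (5.08%) held a mouse far from the other mice of its group, about the rate of 1 in 20 that chance gives. High values were those of Prss34 in 3 h mouse 4 (46.8 CPM, others 1.10 to 8.72), Ifitm1 in 3 h mouse 3 (939, others 567 to 624), S100a9 in 3 h mouse 2 (36.2, others 2.41 to 7.96), Myb in 24 h mouse 1 (327, others 287 to 292), Tap1 in 3 h mouse 3 (173, others 148 to 150), Irf7 in 3 h mouse 3 (381, others 345 to 349) and Dntt in 3 h mouse 2 (51.5, others 31.2 to 33.9). Low values were those of Dut in 3 h mouse 2 (511 CPM, others 532 to 534), Irf7 in 24 h mouse 1 (58.1, others 65.7 to 66.8), H2-K1 in 3 h mouse 1 (1036, others 1080 to 1086), and Ccnb1 in 3 h mouse 3 (20.2, others 26.8 to 27.8) and in 24 h mouse 1 (31.5, others 32.3 to 32.4).

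Among 88 named genes tested in both classes, the change from 3 h to 24 h differed between HSC-like and myeloid progenitor-like cells for 12 (limma on the within-mouse difference, adjusted p under 0.05), and for 11 of them the HSC-like change was below. The differences (log2) were -2.95 for Ifi204, -2.65 for Ifit2, -2.25 for Ifi27l2a, -1.60 for Mnda, -1.56 for Gbp2, -1.33 for Ly6e, -1.24 for H2-Q6, -1.07 for Bst2, -0.81 for Hspa5, -0.76 for Casp1, -0.75 for Trim30a and 0.51 for Npm1.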

How the results depend on the processing

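The 341 lower DEGs numbered 289 to 446 over 18 alternatives other than clusters in equal weights, which gave 237 lower and 46 higher. The equal weights were fitted with limma without TMM scaling, so the test and the scaling changed along with the weights. The 61 higher DEGs numbered 104 by library size alone and 115 without a filter, and 47 to 77 when 1 mouse was left out, when 38 to 48 of the 61 were called again. No DEG changed sign under any alternative. With the hashtag number as a replicate block 344 genes were lower and 58 higher, and 3 of 4 numbers correlated best with their own. The 5 listed interferon genes that rose were 3 with DESeq2 and 3 to 5 when 1 mouse was left out. With a margin of 0.25 around the control level, 2 lower DEGs had been at the control level at 3 h, 7 genes started after 3 h and 7 rose further. With a margin of 1 these were 25, 37 and 1, with 23 that came back from below and 111 still above control at 24 h. Without control mouse 4 (chosen after seeing the data) they were 2, 8 and 1. Leaving out 1 mouse gave 13 to 30 higher DEGs in erythroid, 11 to 29 in MK and 24 to 69 in myeloid progenitor-like cells. Ba/MC/Eo progenitor-like cells had 15 at resolution 0.4 and MK progenitor-like cells 10 at 1.2. HSC-like cluster 8 alone had 30 (clusters 3 and 8 alone were added after seeing the data). The 155 genes that differed between classes were 101 at resolution 1.2, 83 with cluster 8 alone and 29 to 96 without 1 mouse. Of 2261 values of 119 named genes under 19 alternatives, 2244 kept their call, 12 lost it and 5 gained it. Depth per mouse at 3 h (4903401 to 8553452 UMIs) limits the genes with few counts, where most rises lie. Where a value changed, the cause was not tested.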
